A study of Schizosaccharomyces pombe with 4 samples.

Results

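Fission yeast, Schizosaccharomyces pombe, mates between cells of opposite mating type that find each other by secreted pheromones. The 10 genes described here take part in this exchange. They encode the 3 M-factor precursors (mfm1, mfm2 and mfm3), the P-factor precursor (map2), the receptors for P-factor (mam2) and M-factor (map3), and the M-factor exporter (mam1). The set is completed by an adhesion protein of M cells (mam3), a peptidase that degrades P-factor (sxa2) and a transcription factor for P-cell genes (map1). Genes were chosen by their symbols in the array's platform annotation, and all 10 were found among 2899 named S. pombe genes, on 12 probe sets. Each passed the background filter, on all 4 arrays, and so was among the 2857 genes tested.

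In this pathway a nutrient-starved M cell exports M-factor, a farnesylated peptide, through an ABC transporter, and a P cell secretes P-factor, an unmodified peptide cut from a longer precursor. Each pheromone binds a seven-helix receptor on the partner, which acts through a G protein alpha subunit, Ras and a MAP kinase cascade. The HMG-box factor Ste11 sits at the centre, since it switches on pheromone and receptor genes and is itself activated by the pathway. Atf1, a bZIP factor that acts downstream of the MAP kinase Sty1, is known to be needed for induction of ste11 when nitrogen runs out.

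Total RNA was measured on Affymetrix arrays in wild-type cells carrying the empty vector and in cells of the Atf1-OP strain, which overexpress Atf1. Each group had 2 arrays, labelled as biological replicates. The overexpression vector, its promoter, the growth medium and the mating type of the cells are not stated in the labels, and none of the mating-type genes listed for M and P cells was named among the probe sets. The comparison asks which transcripts differed when Atf1 was overexpressed. In such bulk RNA, fewer cells of a type and less RNA per cell cannot be told apart.

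The arrays differed as wholes. On the deposited log2 scale the median of all tested genes lay 0.27 higher under overexpression, so values were quantile normalized, and levels below are normalized log2 values unless called deposited. Background, taken as the 95th percentile of probe sets for the budding yeast S. cerevisiae, had deposited values of 3.06 and 3.16 for the control arrays but 2.74 and 2.69 for the overexpression arrays. Labelling controls added as poly-A transcripts were higher under overexpression, by a mean log2 of 1.56 at their 5′ ends and 0.34 at their 3′ ends, and hybridization controls were lower, at 11.9 in the control and 10.9 under overexpression. The part of these shifts in the results below was not tested.

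The transcripts of the pheromone genes did not move one way. The exporter gene mam1 rose 1.44-fold and the M-factor gene mfm2 fell, to a level 1.39-fold lower, while the remaining 8 did not pass an adjusted p of 0.05. These 2 of 10 genes stand beside 21.2% of all genes tested that passed, 10.2% higher and 11.0% lower, a share that does not set the pheromone genes apart. The median log2 difference over the 10 genes was -0.15, against -0.01 for all genes tested. Differences ran from -0.66 for map1 to 0.53 for mam1.

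**Figure D1:**
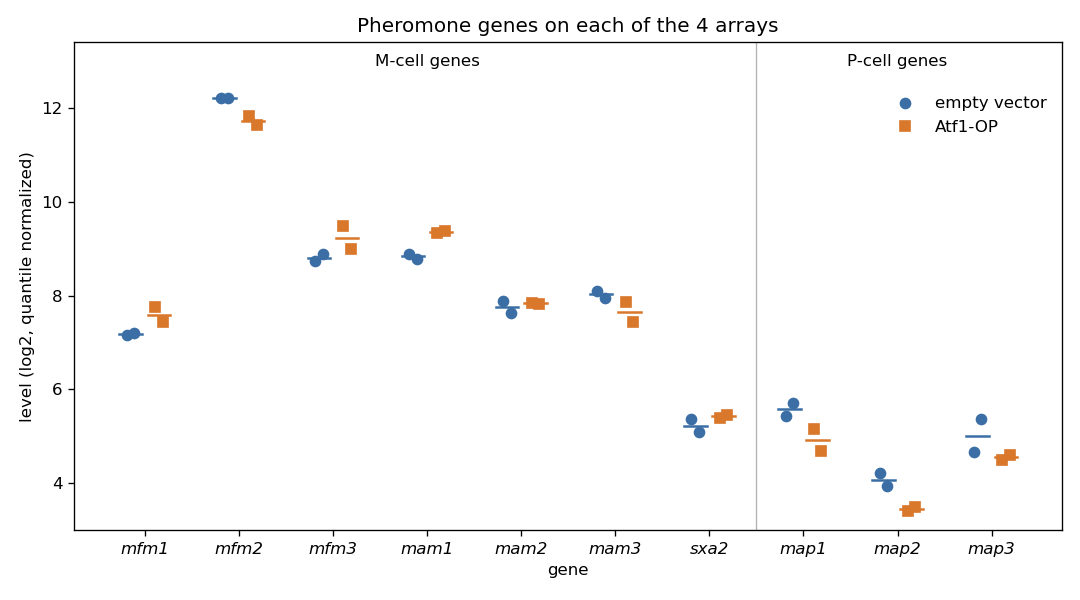
Normalized log2 level (vertical axis) of each pheromone gene (horizontal axis) on the 4 arrays; circles are the 2 empty vector arrays, squares the 2 Atf1-OP arrays, and short lines the group means. The groups overlap for mam2 and separate for all the other genes, as they do for 66.4% of all genes tested. Separation is upward for mam1 and downward for mfm2, the 2 genes that passed the test. Levels of different genes are read by different probe sets and are not comparable.

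The M-factor precursors were described first because 3 genes encode one pheromone. The level of mfm2 (SPAC513.03) was 12.21 on both control arrays and 11.82 and 11.65 on the overexpression arrays. Both overexpression arrays thus lay below the control. The log2 difference was -0.47 ± 0.07 (SE), with a 95% interval of -0.64 to -0.31 (limma, adjusted p = 0.00736). Quantile normalization gave the control arrays the same value, so that their spread is hidden. In the deposited values they stood at 12.11 and 12.16, against 11.93 and 11.75 under overexpression, a log2 difference of -0.30 (adjusted p = 0.0284). The gene no longer passed when either control array was left out, and most other calls among all genes tested were lost too. Its log2 differences were then -0.47 without replicate 1 and -0.46 without replicate 2.

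For mfm1 (SPAPB8E5.05), levels of 7.16 and 7.20 in the control stood beside 7.75 and 7.43 under overexpression. Both overexpression arrays were above both control arrays, and the log2 difference was 0.41 ± 0.14 (SE), which did not pass (adjusted p = 0.0703). Levels of mfm3 (SPBPJ4664.03) were 8.73 and 8.88 in control cells, compared with 9.47 and 8.99 under overexpression. Here too the groups did not overlap, with a log2 difference of 0.43 ± 0.15 (SE) that did not pass (adjusted p = 0.0860). In each gene the first overexpression array was the higher one. Without overexpression replicate 2 both genes passed (adjusted p = 0.0470 for mfm1 and 0.0211 for mfm3), with log2 differences of 0.58 and 0.65, and without overexpression replicate 1 these were 0.26 and 0.19.

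Each of mfm1 and mfm3 has a second probe set. The values above come from the brighter one, whose name carries the suffix that Affymetrix gives to probe sets with probes shared between sequences. The plain probe set of mfm1 gave a log2 difference of 0.44 and that of mfm3 one of 0.34. The direction was thus the same on all 4 probe sets, and whether the shared probes read other M-factor genes is not known here.

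Ratios within an array do not depend on a shift that is equal for all genes, though they do on one that varies with level. The log2 ratio of mfm1 to mfm2, in deposited values, was higher by 0.93 and 0.82 on the overexpression arrays than its control mean, around which the control arrays lay within 0.043. For mfm3 to mfm2 the ratio was higher by 1.01 and 0.82, with control arrays within 0.025 of their mean. The ratio of mfm1 to mfm3 differed by only -0.044 on average, and its groups overlapped. Both ratios to mfm2 thus separated the groups, and the ratio of mfm1 to mfm3 did not. With quantile normalization the mean differences of mfm1 and mfm3 to mfm2 went from 0.87 to 0.89 and from 0.92 to 0.90. That of mam2 to map3 went from 0.11 to 0.54, so not all ratios were free of the scaling. With 2 arrays against 2 an exact two-sided permutation test cannot give a p below 0.333, the value for each of the separate ratios, and 6 ratios were compared.

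**Figure D2:**
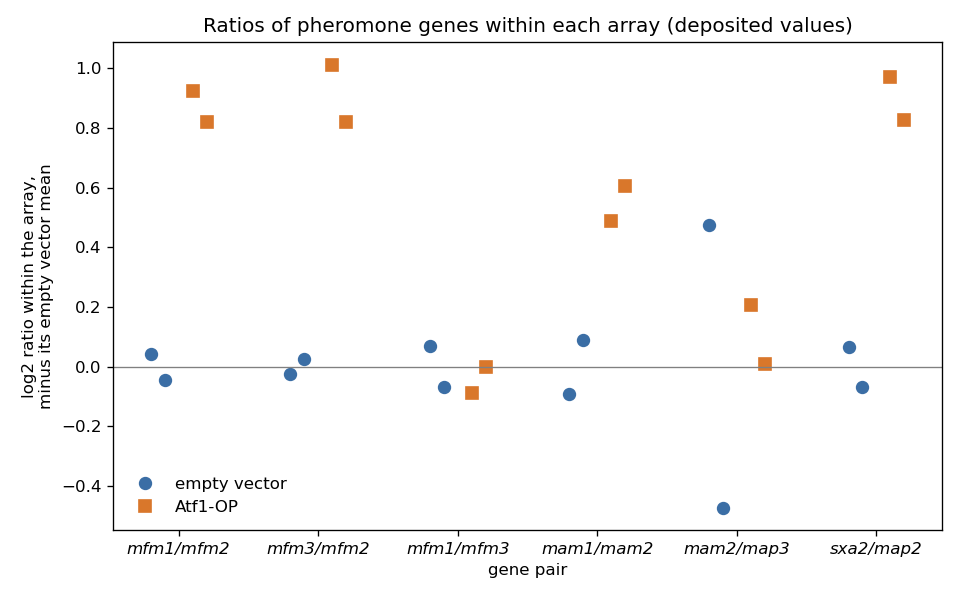
Log2 ratio of the deposited values of 2 pheromone genes within each array, minus the mean of the empty vector arrays (vertical axis), for 6 gene pairs (horizontal axis); circles are empty vector arrays and squares Atf1-OP arrays. The ratios mfm1/mfm2, mfm3/mfm2, mam1/mam2 and sxa2/map2 separate the groups, whereas mfm1/mfm3 and mam2/map3 do not.

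Export of M-factor from the cell depends on Mam1, a transporter of the ABC family. The mam1 transcript (SPBC25B2.02c) was at 8.90 and 8.78 in the control, and at 9.34 and 9.39 under overexpression. Both overexpression arrays were above both control arrays, by more than the spread within either group. Means were 8.84 ± 0.08 (SD, n = 2) and 9.37 ± 0.03 (SD, n = 2), a log2 difference of 0.53 ± 0.08 (SE) with a 95% interval of 0.33 to 0.72 (limma, adjusted p = 0.00900). The difference was 0.75 in the deposited values (adjusted p = 0.00271) and 0.53 with median centring (adjusted p = 0.00257). Like mfm2 and most other genes that had passed, the gene no longer passed when either control array was left out. Its log2 difference was then 0.60 without replicate 1 (adjusted p = 0.0651) and 0.47 without replicate 2 (adjusted p = 0.107).

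The receptor genes gave no call. For mam2 (SPAC11H11.04), the P-factor receptor carried by M cells, levels were 7.89 and 7.64 in control cells, compared with 7.85 and 7.83 under overexpression. The overexpression arrays lay between the control arrays. The log2 difference was 0.07 with a 95% interval of -0.20 to 0.35 (adjusted p = 0.682), and its sign turned to -0.020 with median centring. Levels of map3 (SPAC3F10.10c), the M-factor receptor carried by P cells, were 4.66 and 5.37 in control cells, compared with 4.50 and 4.60 under overexpression. The control arrays were 0.72 apart, more than for any other pheromone gene, and the lower of them was close to the overexpression arrays. Its log2 difference was -0.46 with a 95% interval of -1.06 to 0.14 (adjusted p = 0.225), and 0.094 in the deposited values. It was -0.81 without control replicate 1 and -0.11 without control replicate 2, so the control arrays decided its size. Within arrays the ratio of mam1 to mam2 was higher by 0.49 and 0.61 under overexpression than its control mean, whereas the ratio of mam2 to map3 did not separate the groups.

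The P-factor precursor gene map2 (SPCC1795.06) lay close to background, at 0.93, 0.52, 0.78 and 1.09 log2 units above it on the deposited scale, control arrays first. Its normalized levels were 4.23 and 3.93 in control cells, compared with 3.40 and 3.49 under overexpression. The overexpression arrays were lower on this scale, with a log2 difference of -0.63 and a 95% interval of -1.12 to -0.14 that did not pass (adjusted p = 0.0705). On the deposited scale the difference was -0.19 (adjusted p = 0.529). After normalization background itself stood at 3.25 and 3.33 on the control arrays, above the 2.67 and 2.63 of the overexpression arrays, so it was lower in the same direction as map2. The part of this background shift in the map2 value was not tested.

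The gene map1 (SPAC11E3.06), for the factor that works with the mating-type protein of P cells, had levels of 5.44 and 5.72 in control cells against 5.16 and 4.69 under overexpression. The groups did not overlap, with a log2 difference of -0.66 ± 0.22 (SE) that did not pass (adjusted p = 0.0696). In the deposited values the groups overlapped, at 5.28 and 5.42 against 5.39 and 5.04, with a log2 difference of -0.13. Levels of mam3 (SPAP11E10.02c), which encodes the adhesion protein of M cells, were 8.09 and 7.95 in control cells, compared with 7.86 and 7.43 under overexpression. The groups did not overlap, but the log2 difference of -0.38 ± 0.15 (SE) did not pass (adjusted p = 0.111). It passed with median centring at -0.46 (adjusted p = 0.0206). In the deposited values the mam3 groups overlapped, at 8.05 and 7.86 against 7.90 and 7.52. The log2 difference there was -0.24 and did not pass (limma, adjusted p = 0.227). It was -0.59 without overexpression replicate 1 and -0.16 without overexpression replicate 2.

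The P-factor peptidase gene sxa2 (SPAC1296.03c) stood at 5.36 and 5.09 in the control and at 5.39 and 5.46 under overexpression. The groups were separated by less than the gap between the control arrays. The log2 difference was 0.20 with a 95% interval of -0.22 to 0.62 (adjusted p = 0.436), and 0.71 in the deposited values, where it passed (adjusted p = 0.0333). Within arrays the ratio of sxa2 to map2, the peptidase to the precursor of the peptide it degrades, was higher by 0.97 and 0.83 on the overexpression arrays than its control mean. Since map2 lay only 0.52 to 1.09 log2 units above background, this ratio is limited by it. The part of the background shift in the ratio was not tested.

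**Figure D3:**
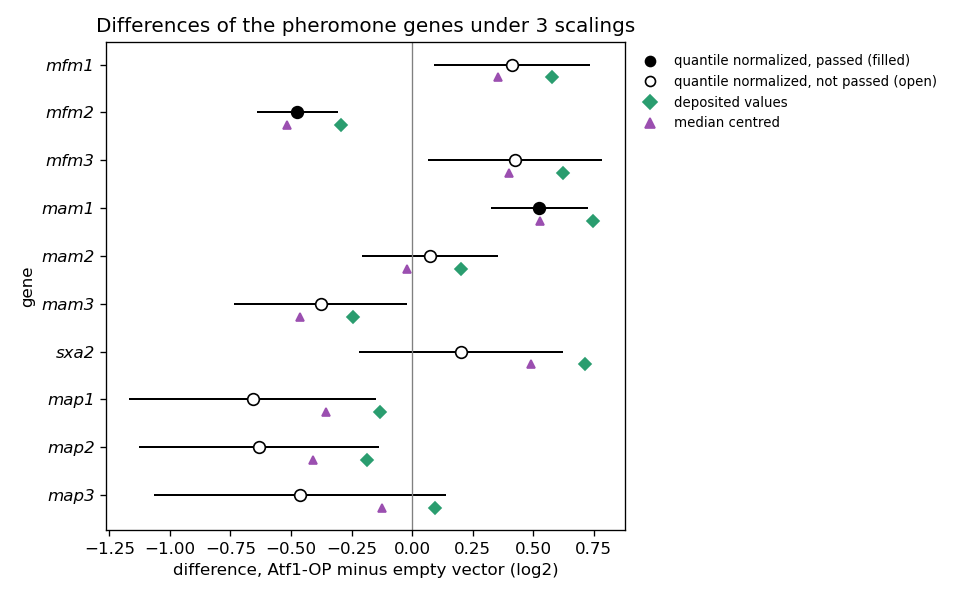
Log2 difference, Atf1-OP minus empty vector (horizontal axis), of each pheromone gene (vertical axis); circles are quantile normalized values with their 95% interval from limma, filled where the adjusted p was below 0.05, diamonds are deposited values and triangles median-centred values. The differences of mam2 and map3 cross 0 between the 3 scalings, whereas those of all the other genes, mam1 and mfm2 among them, keep their sides of 0.

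Read together on the normalized scale, groups did not overlap for 9 of the 10 genes, 4 higher and 5 lower. This stands beside 66.4% of all genes tested, 32.0% higher and 34.4% lower. In the deposited values, where the median of all genes lay 0.27 higher, the groups of mam3, map1, map2 and map3 overlapped. Those of mam2 separated upward, with a log2 difference of 0.20. The share of all genes whose groups separated on that scale was not counted. The 7 M-cell genes of the set had a median log2 difference of 0.20, with mam1 higher, mfm2 lower and 5 not passing. For P cells, 5 marker genes were measured, namely map1, map2, map3, the P-cell adhesion gene map4 and the protease gene sxa1. Their median was -0.46, with 3 of them lower and 2 higher, map4 by 0.39 and sxa1 by 0.11. None passed in limma, and 2 of them, map1 and map2, had an unadjusted p under 0.05. With median centring the P-cell median was -0.13 and the M-cell median 0.36, against 0.05 for all genes. In the deposited values the P-cell median was 0.094 and the M-cell median 0.58, against 0.27 for all genes. All M-cell and P-cell genes were above background on all 4 arrays. Within the groups the pheromone genes had a median SD of 0.16 between replicate arrays, against 0.13 over all genes tested.

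The choice of scaling set how many of the pheromone genes passed. In the deposited values 4 rose (mam1, mfm1, mfm3 and sxa2) and 1 fell (mfm2), beside 31.6% and 4.06% of all genes tested and 35.7% in either direction. Their median was then 0.15, against 0.27 for all genes. With median centring 2 rose (mam1 and mfm3) and 2 fell (mfm2 and mam3), beside 15.3% and 12.1%, and 27.4% in either direction. The calls of mam1 and mfm2 were thus made under all 3 scalings.

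Genes on either side of the pheromone exchange were read from the same fit. Among 13 genes of pheromone signalling and Ste11, 6 rose and 2 fell, 5 others did not pass, and the median log2 difference was 0.51, beside 10.2% of all genes tested that rose and 11.0% that fell. In the deposited values 9 rose and 0 fell, with a median of 0.68, where 31.6% of all genes rose and their median was 0.27. With median centring 8 rose and 2 fell, beside 15.3% and 12.1% of all genes. The transcript of ste11 was at 8.54 and 8.67 in the control, and at 9.33 and 9.51 under overexpression, a log2 difference of 0.82 ± 0.10 (SE, adjusted p = 0.00405). Largest among the rises was ste7, a gene needed for mating and meiosis, at 1.45, followed by rgs1, a regulator of G protein signalling, at 1.16. The other rises were the G protein alpha subunit gene gpa1 (0.75), the Ras GTPase-activating protein gene gap1 (0.73) and the Ras exchange factor gene ste6 (0.60). The falls were gnr1, which encodes a G protein beta-like protein, at -1.13 and the MAP kinase kinase kinase gene byr2 at -0.52. Among those that did not pass, the MAP kinase gene spk1 stood at 0.51 and the adaptor gene ste4 at 0.46. Of these calls, gnr1 and byr2 were not made in the deposited values. Over all genes tested, most calls were lost when either control array was left out. When single arrays were left out, ste7 and rgs1 passed in all 4 fits, ste11 in 3, gpa1 in 2, gap1, gnr1 and byr2 in 1 each, and ste6 in 0. The number of rises in this list was lower whichever array was left out. Over all genes tested it was lower too, except without overexpression replicate 1.

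Of 6 measured genes for maturation and breakdown of the pheromones, 1 rose and none fell, none of them lower at an unadjusted p under 0.05 either, with a median of 0.17. Among all genes tested 10.2% rose, so 1 of 6 does not set this list apart. In the deposited values 2 of them rose, beside 31.6% of all genes tested, with a median of 0.37 against 0.27 for all genes. The gene that rose was krp1 (0.52 ± 0.14 SE, adjusted p = 0.0347), which encodes the endoprotease that cuts the P-factor precursor. The genes cpp1, for the beta subunit of the enzyme that farnesylates M-factor, and mam4, for the methyltransferase that acts on it, stood at 0.33 and 0.21 and did not pass. The krp1 call was lost whichever of the 4 arrays was left out. No probe set was named for 2 further genes of that list, rce1 and ste24.

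Of 9 genes for cell adhesion, cell fusion and nuclear fusion, 1 fell and none rose, though cfr1 was higher at an unadjusted p under 0.05, with a median of -0.13. The share of all genes that fell was about the same, 11.0%. The counts differed with the scaling, as did those over all genes. Deposited values gave 2 higher and 0 lower (median 0.32), beside 31.6% and 4.06% of all genes and their median of 0.27. Median centring gave 1 higher and 0 lower, beside 15.3% and 12.1%. The fall was in tht1, a nuclear fusion gene, at -0.81 ± 0.19 (SE, adjusted p = 0.0230), a call lost with median centring, in the deposited values and whichever array was left out. The fusion genes cfr1 (0.59) and prm1 (-0.44) did not pass. Among 12 upstream regulators of ste11, 2 rose and 1 fell, with 9 others not passing. That is near the 21.2% of all genes that passed. The median was -0.02. In the deposited values 4 rose and 1 fell, beside 31.6% and 4.06% of all genes tested. The median there was 0.27, both for the list and for all genes. The rises were atf1 itself, the overexpressed gene, at 0.83 ± 0.20 (SE, adjusted p = 0.0273), and rst2, a zinc finger activator of ste11, at 0.59. The kinase gene gad8, of the TOR complex 2 pathway, fell by 0.46 on the log2 scale. The genes pcr1, for the bZIP partner of Atf1, and rep1, for a zinc finger protein of pre-meiotic DNA synthesis, stood at -0.45 and -0.47 and did not pass. Leaving out a control array ended the calls of atf1, rst2 and gad8, as it did for most genes that had passed. Leaving out overexpression replicate 2 ended those of atf1 and rst2.

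**Figure D4:**
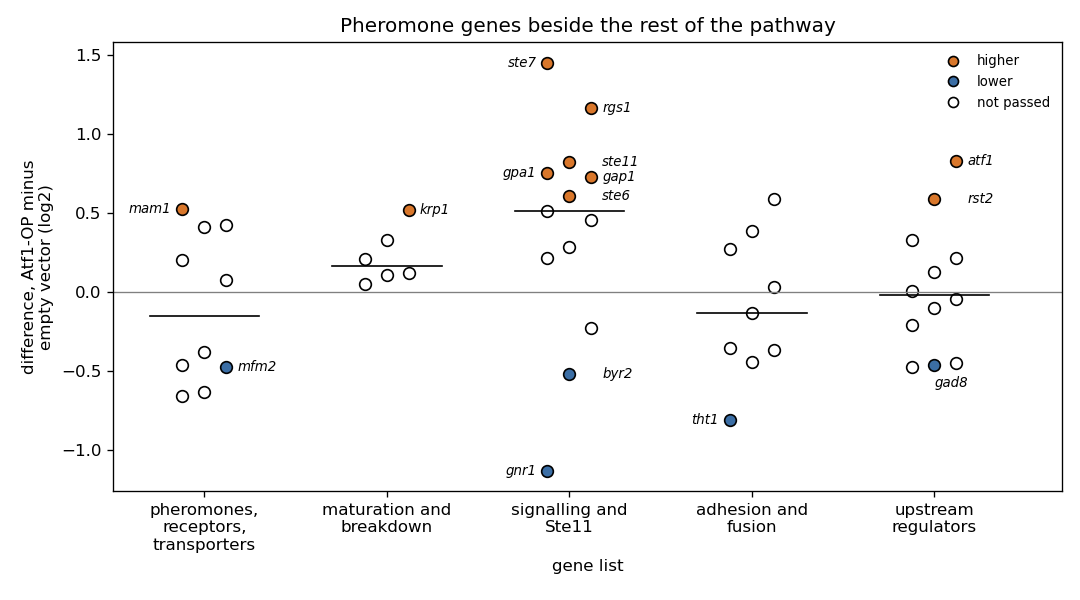
Log2 difference, Atf1-OP minus empty vector (vertical axis), of each gene in 5 lists (horizontal axis), with list medians as lines; filled points passed an adjusted p of 0.05 in limma and are named, and the sideways spread of points has no meaning. The signalling list has the highest median, 0.51, while the pheromone genes lie on both sides of 0.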

How the data were processed

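The authors' deposited table holds 1 log2 summary per probe set and array. Biotinylated cRNA was made from total RNA, per the labels' protocols; how it was summarised and normalized is not given in the sources used. Of 10928 probe sets, 2914 matched RefSeq genes (ASM294v3, names only) by identifier and 3 by symbol. The 2937 S. pombe probe sets, 20 with several genes included, were quantile normalized. The brightest probe set per gene was kept, and 42 genes not above background on at least 2 arrays were left out.

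Groups came from sample titles. The test was lmFit and eBayes with trend from limma 3.58.1 (R 4.3.3; two-sided; Benjamini-Hochberg over all genes). On simulated data for this comparison (2857 genes, 200 changed, 5 runs), 37.0% of 1.5-fold and 70.8% of 2-fold changes were recovered, and 3.52% of calls were false. The precision is limited by 2 arrays per group.

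Members and lists were chosen with earlier results of these data known. Named were all members, all list genes that passed, and the 2 others per list that differed most, besides ste11, atf1 and pcr1; map4, sxa1, rce1 and ste24 were named after values were seen. The alternatives tried changed the scaling, the background filter, the variance model, the probe set rule or the pseudocount (16), added a replicate block, or left out an array. The plain probe set rule was added after the data were seen. Figures used matplotlib 3.10.9.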

Additional observations from a re-analysis of the deposited data

How the results depend on the processing

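Across 15 alternatives the 10 pheromone genes gave 150 log2 differences, of which 3 had the opposite sign. These were mam2 with median centring (-0.020) and without control replicate 2 (-0.050, in a range up to 0.19 when 1 array was left out), and map3 in the deposited values (0.094). The other 8 genes kept 1 sign throughout. The number of pheromone genes passing was 2 with the settings reported, 5 in the deposited values and 4 with median centring. Of all 2857 genes tested, 607, 1019 and 783 passed in these settings. The number was 0 in limma without trend, where 165 of all genes passed, and 6 with a replicate block, where 852 passed. It fell when either control array was left out, as did the count over all genes. It rose when either overexpression array was left out, where the count over all genes rose without replicate 1 and fell without replicate 2. For the count of 0 without trend, the adjusted p of mam1 was 0.0524 and that of mfm2 0.0595, and 5 of the 10 genes had an unadjusted p under 0.05. Over the 4 other lists together, the count passing was 13 (9 higher and 4 lower) as reported. It became 18 in the deposited values (17 higher and 1 lower), 17 with a replicate block, 15 with median centring, 6 without trend, and between 2 and 10 with 1 array left out. The sample titles do not say whether same-numbered arrays were paired. Same-numbered deviations from the group means correlated with r = 0.038 across genes, which cannot decide it. The replicate block raised the count of all genes passing from 607 to 852. Where 1 array was left out, the remaining one of its group was given the spread of the other group. The causes of these changes were not tested. With 2 arrays per group and 1.5-fold changes often missed on simulated data, a gene that did not pass is not shown to be unchanged.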
